A study of Homo sapiens with 12 samples.

Results

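Integrins are the receptors by which cells hold on to the surrounding matrix, and 10 of their subunit genes are described here in melanoma cells given etoposide with or without rapamycin. They are the alpha subunits ITGA2, ITGA3, ITGA4, ITGA5, ITGA6, ITGAV, ITGA10 and ITGA11 and the beta subunits ITGB1 and ITGB3. Each was taken from the count table as the row whose gene symbol matched exactly, which gave 1 row for each gene, 10 of the 58307 rows that name a gene. The other 16 human integrin subunit genes served for comparison. The set was put together with the etoposide + rapamycin against etoposide differences in view, so for these 10 genes those differences are described without a test. Adjusted p-values for other comparisons measure only the spread between the libraries of a group, which the study describes as biological replicates while the labels do not name separate cultures. The same holds for the difference of that response between the cell line labels, which is built from the same values.

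By their labels, the 12 libraries came from polyA-enriched RNA of A375 and SK-MEL-28, established human melanoma cell lines grown in culture. Every culture received etoposide, which traps topoisomerase II on DNA, and the treated groups also received rapamycin, an inhibitor of the kinase mTOR that the study used to induce autophagy. Each of the 4 groups (A375 etoposide, A375 etoposide + rapamycin, SK-MEL-28 etoposide, SK-MEL-28 etoposide + rapamycin) had 3 libraries. Doses and exposure times of the sequenced cultures are not given in the sources used here, and cells without etoposide or with rapamycin alone are not analysed here. The deposited values are raw counts per gene, with 28190672 to 32499659 counts per library.

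An integrin is a heterodimer of 1 alpha and 1 beta subunit that spans the plasma membrane, binds matrix or a counter-receptor outside the cell, and is linked to actin inside it through talin, kindlin and other adapters. The alpha subunit largely sets the ligand. ITGA1, ITGA2, ITGA10 and ITGA11 make the collagen receptors, all paired with ITGB1. ITGA3, ITGA6 and ITGA7 make laminin receptors, ITGA5 and ITGAV bind the RGD motif of fibronectin and vitronectin, and ITGA4 binds fibronectin and VCAM1. In melanoma the pair of ITGAV and ITGB3 is well known as a receptor of the invasive stage.

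Before the values, the labels were checked. In a check for mixed-up samples, 6 of the 12 libraries, those labelled SK-MEL-28, did not match their group's labels. Only libraries with that label could fail the check, so it says nothing about the A375 labels. The names of the cell lines are therefore used below as labels only. The comparison within A375 uses none of the libraries labelled SK-MEL-28, and every comparison between the labels rests on them. As the SK-MEL-28 labels are in doubt, a difference between the labels cannot be taken as a difference between these cell lines. Across genes the libraries labelled SK-MEL-28 were close to those labelled A375, though less close than libraries within a label. Over 20101 genes, the correlation of log2 CPM (the count of a gene relative to the total of its library) was 0.983 to 0.986 between libraries of 1 group, 0.977 to 0.981 between the treatments of 1 label and 0.958 to 0.97 between labels, and 88 genes had means more than 8-fold apart between the labels with etoposide. Of the 8 melanocyte lineage markers, SOX10 (mean per group in RPKM, CPM divided by exon length in kilobases, 60.4 to 98.4) and S100B (32.4 to 54.4) were high in all groups, MITF was at 1.82 to 3.82, and the pigment genes PMEL, MLANA, TYR, TYRP1 and DCT were at or below 0.682. PTPRC, the marker of leukocytes, was at or below 0.0297 RPKM and CDH5, a marker of endothelium, at or below 0.0982. Per library the summed level was 93.6 to 155.4 RPKM for the melanocyte markers. It was 9.51 to 14.8 for 4 endothelial and 47.5 to 82.5 for 6 epithelial markers. The endothelial sum was mostly KDR, with group means of 8.95 to 12.89 RPKM. Most of the epithelial sum was KRT18 (39.69 to 63.37) and KRT8 (7.149 to 15.45), while EPCAM was at or below 0.105.

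ITGA10 and ITGA11 are the collagen receptor subunits that showed the largest differences with rapamycin among the 10 genes. ITGA10 pairs with ITGB1 and is best known from cartilage, where it binds collagen II. ITGA11 pairs with ITGB1, binds fibrillar collagen I and is best known from fibroblasts. In the GENCODE annotation on GRCh38, ITGA10 lies on the minus strand of chromosome 1 at 145891208 to 145910111, and its longest transcript has 30 exons. ITGA11 lies on the minus strand of chromosome 15 at 68296532 to 68432163, and its longest transcript also has 30 exons. No protein-coding gene overlaps either locus, but a long noncoding gene overlaps ITGA10 on the opposite strand, and whether the counting used the strand is not given in the sources used here. Their proximal promoters are printed because both genes were lower with rapamycin under both labels, and they show how unlike the sequences are. Both come from RefSeq (GRCh38.p14), run 5′ to 3′ on the strand of the gene, and stop where the annotated gene begins. Capitals mark the letters of the searched motifs that they hold, CATTCC (the reverse complement of the TEAD motif GGAATG) for ITGA10 and ACGTG (the core of a hypoxia response element) for ITGA11.
ITGA10, chr1:145910112-145910300, minus strand: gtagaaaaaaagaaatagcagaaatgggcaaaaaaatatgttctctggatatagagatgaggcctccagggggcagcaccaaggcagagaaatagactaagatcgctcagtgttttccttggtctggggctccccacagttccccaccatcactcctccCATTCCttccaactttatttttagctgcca
ITGA11, chr15:68432164-68432413, minus strand: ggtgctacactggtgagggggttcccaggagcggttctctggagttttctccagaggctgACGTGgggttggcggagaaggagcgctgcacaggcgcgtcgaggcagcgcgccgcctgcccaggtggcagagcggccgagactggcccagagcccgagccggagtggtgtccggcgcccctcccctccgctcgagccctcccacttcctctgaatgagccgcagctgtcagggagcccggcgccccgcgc
The ITGA10 window of 189 bases had a GC content of 46% and 1 CG dinucleotide, and the ITGA11 window of 250 bases had 71.2% and 23, where the median over all promoters was 58% GC. Searched on both strands in the 250 bases before the start of 27305 genes, ACGTG stood in 18.7% of promoters, GGAATG in 11.9%, the GC box GGGCGG in 42.3% and the AP-1 motif TGANTCA in 6.6%. The table held 8 of the 10 genes. ACGTG stood in ITGA11 and ITGA6, GGAATG in ITGA10, ITGA5 and ITGB1, GGGCGG in ITGA2, ITGA5 and ITGB1, and TGANTCA in none of these 8 windows. These are matches of letters, not binding sites.

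CPM was scaled with TMM factors, which set the libraries on a common scale. In A375, ITGA10 stood at 15.5, 13.4 and 13.9 CPM with etoposide and at 7.63, 7.37 and 6.28 CPM with etoposide + rapamycin. In the libraries labelled SK-MEL-28 it stood at 40.7, 34.3 and 38.7 CPM with etoposide and at 24.3, 22.8 and 24.2 CPM with etoposide + rapamycin. Under either label each library with rapamycin lay below each library without it. The log2 difference of etoposide + rapamycin to etoposide was -1.004 ± 0.12 (standard error, SE; n = 3 per group) in A375 and -0.68 ± 0.08 under the SK-MEL-28 label. As bulk RNA was sequenced, fewer cells expressing a gene and less of its RNA per cell cannot be told apart.

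ITGA11 stood at 17.7, 14.3 and 16.3 CPM in A375 with etoposide and at 8.75, 7.2 and 8.59 CPM with etoposide + rapamycin. The SK-MEL-28 label gave 14.1, 12.8 and 15.2 CPM with etoposide against 4.65, 4.57 and 3.93 CPM with etoposide + rapamycin. Here too the groups did not overlap, and the lowest levels of ITGA11 in the series were those of the SK-MEL-28 label with rapamycin. The log2 difference was -0.97 ± 0.12 in A375 and -1.68 ± 0.12 under the SK-MEL-28 label, a 3.21-fold lower level. The response under the SK-MEL-28 label minus that in A375 came to 0.34 ± 0.13 on the log2 scale for ITGA10 and to -0.70 ± 0.17 for ITGA11, given here as a description. The raw counts behind these values were 187 to 1274 per library for ITGA10 and 121 to 540 for ITGA11.

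For the markers of fibroblasts, cells known for ITGA11, the summed level had the same order over the groups as ITGA10, through 1 gene. Summed over the 5 fibroblast markers, the level was 3.36 to 4.41 RPKM in A375 with etoposide, 2.36 to 2.69 with etoposide + rapamycin, and under the SK-MEL-28 label 9.24 to 11.9 and 6.2 to 7.18. That gene was LUM, whose group means were 2.73, 1.64, 9.59 and 6.07 RPKM in that order, while COL1A2 was at or below 0.0122 RPKM and COL1A1 at or below 0.204. DCN ran the other way between the labels (0.443, 0.284, 0.121 and 0.0811 RPKM in the same order), and PDGFRA stood at 0.459 to 0.653 RPKM. Their part in the levels of ITGA10 and ITGA11 was not tested.

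**Figure D1:**
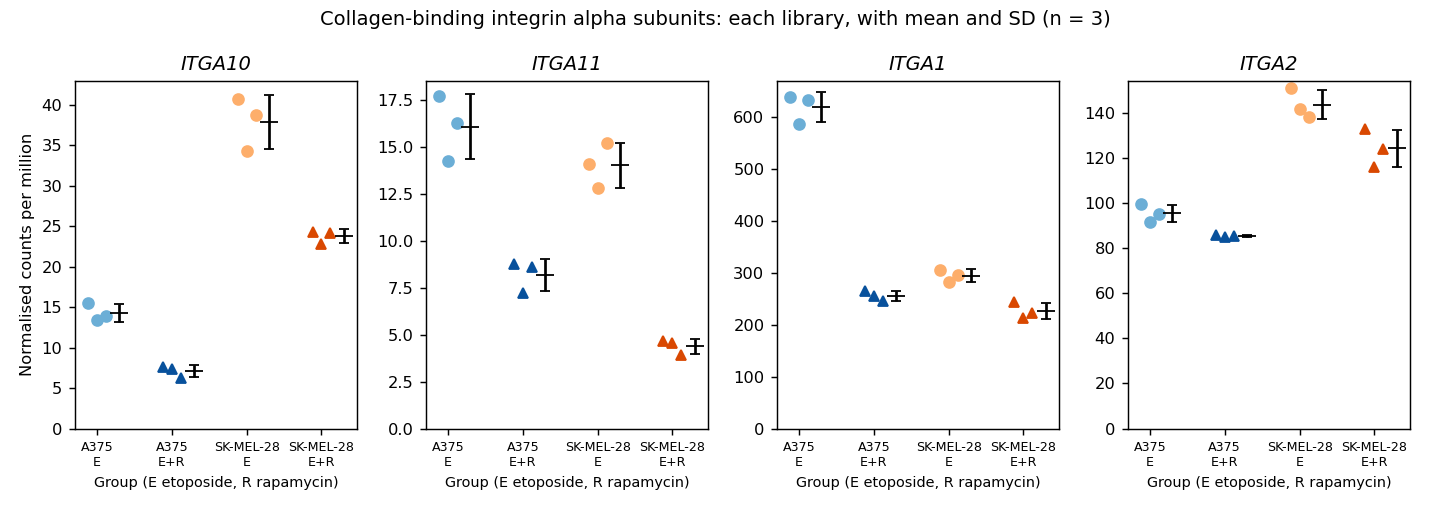
Normalised CPM (vertical axis from 0) of the 4 collagen-binding alpha subunits in each of the 12 libraries (points), with the mean and SD of the 3 libraries of a group (bars). ITGA10 and ITGA11 lay lower with rapamycin under both labels, ITGA1 fell from 619.5 to 255.7 CPM in A375, and ITGA2 differed least.

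Of the other collagen receptor subunits, ITGA2, the platelet and epithelial collagen receptor, is one of the 10 genes. Its level was 99.4, 91.8 and 95.4 CPM in A375 with etoposide against 85.8, 84.9 and 85.5 CPM with etoposide + rapamycin. Its level under the SK-MEL-28 label was 150.9, 141.8 and 138.3 CPM against 132.7, 116.2 and 123.9 CPM. The groups did not overlap, yet the log2 difference was small, -0.16 ± 0.05 in A375 and -0.21 ± 0.06 under the SK-MEL-28 label. ITGA1, the receptor of basement membrane collagen IV, was not among the 10 genes and could be tested. It stood at 638.3, 586.7 and 633.5 CPM in A375 with etoposide and at 265.6, 256 and 245.6 CPM with etoposide + rapamycin, and fell by 1.27 on the log2 scale (SE 0.05, adjusted p = 1.57e-08). The libraries labelled SK-MEL-28 held 306.3, 281.5 and 296.2 CPM of ITGA1 against 244, 213.8 and 222.7 CPM, a log2 change of -0.38 ± 0.06 (adjusted p = 0.00063) that did not reach the 1.5-fold threshold. The fall of ITGA1 was larger in A375, and the difference between the labels was 0.90 ± 0.08 on the log2 scale (adjusted p = 6.62e-06). PELO, a gene inside ITGA1 with the same locus identifier in the table, stood at 101.4 and 77.6 CPM in A375 and at 79.9 and 71.8 CPM under the SK-MEL-28 label without and with rapamycin, and how the counting divided the reads of this locus is not stated.

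Among the laminin receptor subunits, ITGA6, the partner of ITGB4 in hemidesmosomes and of ITGB1 elsewhere, stood at 376.7, 339 and 358.8 CPM in A375 with etoposide and at 241.2, 241.3 and 242.9 CPM with etoposide + rapamycin. For the SK-MEL-28 label ITGA6 stood at 388.9, 364.9 and 366.7 CPM against 290.8, 270.1 and 268.3 CPM. The labels overlapped with etoposide, and both had lower levels with rapamycin, by log2 differences of -0.56 ± 0.05 and -0.44 ± 0.05. ITGA3, a receptor of laminin-332 and laminin-511 that pairs with ITGB1, stood at 512, 479.4 and 454.1 CPM in A375 with etoposide against 498.1, 480.1 and 505.3 CPM with etoposide + rapamycin, and these overlapped. In libraries labelled SK-MEL-28, ITGA3 stood at 691.6, 735.5 and 734.8 CPM against 590.1, 555.7 and 591.8 CPM, which did not overlap. The log2 differences of ITGA3 were 0.04 ± 0.05, which came to -0.0032 with library totals, and -0.32 ± 0.05.

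The RGD receptor subunits did not move as 1 class. ITGA5, the fibronectin receptor, stood at 796.6, 752.8 and 712.4 CPM in A375 with etoposide and, higher in every library, at 836.7, 829.8 and 806.8 CPM with etoposide + rapamycin. With the SK-MEL-28 label it was lower in every library with rapamycin, at 327.5, 295.2 and 311.7 CPM against 362.4, 378.1 and 382.9 CPM. On the TMM scale, ITGA5 was the 1 gene of the 10 genes whose groups stood apart in opposite directions under the labels. Its log2 differences were 0.13 ± 0.05 and -0.27 ± 0.05. With library totals in place of TMM, the difference of ITGA5 in A375 came to 0.09 ± 0.05. ITGAV, which binds vitronectin and activates latent TGF-beta, had log2 differences of -0.17 ± 0.05 and -0.09 ± 0.05, from group means of 241.6 to 213.7 CPM and of 172.2 to 162.4 CPM, and its groups overlapped under the SK-MEL-28 label. ITGB3, its beta partner, stood at 1019, 887.1 and 889.9 CPM in A375 with etoposide and at 726.2, 720.1 and 734.7 CPM with etoposide + rapamycin. For the SK-MEL-28 label, ITGB3 stood at 607.6, 622.9 and 621.2 CPM against 504.6, 382.9 and 434.9 CPM. ITGB3 was lower in all 6 libraries with rapamycin than in their etoposide groups, by log2 differences of -0.35 ± 0.05 and -0.49 ± 0.08. EFCAB13, which overlaps ITGB3 and has the same locus identifier in the table, stood at 10.1 and 7.11 CPM in A375 and at 5.16 and 3.66 CPM under the SK-MEL-28 label without and with rapamycin.

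ITGA4, a receptor of fibronectin and VCAM1 best known from leukocytes and neural crest cells, was low in A375, at 14.2, 11.8 and 14.1 CPM with etoposide and 8.4, 9.66 and 10.3 CPM with etoposide + rapamycin. The SK-MEL-28 label had 52.6, 47.6 and 52.5 CPM of ITGA4 against 37.1, 32.9 and 30.6 CPM. Again no library with rapamycin reached the level of one without it, and the log2 differences were -0.50 ± 0.12 and -0.60 ± 0.08. ITGB1, the common beta partner of the collagen and laminin receptors, changed little, with group means of 464.4 and 419.6 CPM in A375 and of 405.7 and 375.7 CPM under the SK-MEL-28 label. Its log2 differences were -0.14 ± 0.05 and -0.11 ± 0.05.

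Taken as a list, 8 of the 10 genes had a log2 difference below 0 in A375 and 10 of 10 under the SK-MEL-28 label, with medians of -0.26 and -0.38, against medians of -0.01 and 0.01 over all genes tested, of which 50.6% and 49.2% lay below 0. The groups did not overlap for 9 of the 10 in A375 (8 lower) and for 9 under the SK-MEL-28 label (all 9 lower), where 42.6% and 35.9% of all genes did not overlap, 21.9% and 18.2% as lower. All 10 genes passed the expression filter. At the thresholds used for every gene (edgeR, Benjamini-Hochberg adjusted p under 0.05 and more than 1.5-fold), 2 of the 10 lay past both in A375, ITGA10 and ITGA11, where 5.89% of all genes were called, 2.8% as lower and 3.09% as higher. With the SK-MEL-28 label 3 lay past both, ITGA4, ITGA10 and ITGA11, where 4.99% of all genes were called, 3.14% as lower and 1.85% as higher. These counts are a description and no test of the 10 genes, since the comparisons served to choose them, and the shares only give the background. Nearest to the fold threshold of 0.58 on the log2 scale were ITGA4 at -0.60 inside it and ITGA6 in A375 at -0.56 outside it. ITGA6 passed it in A375 with library totals in place of TMM (-0.61) and without A375 etoposide replicate 2 (-0.60). ITGA4 under the SK-MEL-28 label dropped out of it without SK-MEL-28 etoposide + rapamycin replicate 3 (-0.54), SK-MEL-28 etoposide replicate 1 (-0.58) or SK-MEL-28 etoposide replicate 3 (-0.58), and ITGB3 entered it without SK-MEL-28 etoposide + rapamycin replicate 1 (-0.59). Over all genes called in A375, 582 were higher and 527 lower with TMM, and 468 and 659 with library totals.

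**Figure D2:**
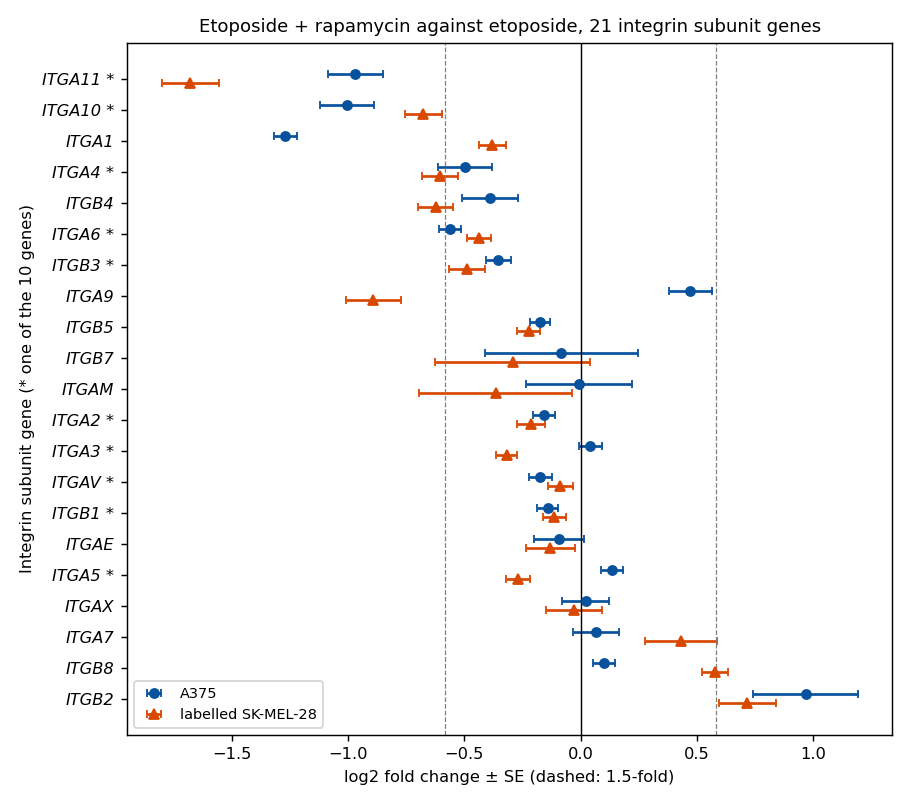
Log2 difference of etoposide + rapamycin to etoposide (horizontal axis, points with SE bars) for the 21 integrin subunit genes that passed the expression filter, in A375 (circles) and under the SK-MEL-28 label (triangles). Dashed lines mark 1.5-fold, asterisks mark the 10 genes described, and ITGA11 and ITGA10 lie farthest to the left of these 10 while ITGB2 lies farthest to the right of all.

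Of the 16 other integrin subunit genes, 11 passed the filter and were tested. In A375, 1 of the 11 fell (ITGA1) and 1 rose (ITGB2), and under the SK-MEL-28 label 2 fell (ITGA9 and ITGB4) and 1 rose (ITGB2). Of all genes, 5.89% and 4.99% were called in these comparisons. The responses differed between the labels for 3 of the 11 (ITGA1, ITGA9 and ITGB8) at an adjusted p under 0.05, as they did for 5.62% of all genes, with 2.97% below 0 and 2.66% above. ITGA9, a receptor of tenascin and VCAM1 close in sequence to ITGA4, stood at 12.2, 12.1 and 13.4 CPM in A375 with etoposide and at 17, 17.1 and 18.1 CPM with etoposide + rapamycin. In the libraries labelled SK-MEL-28, ITGA9 stood at 20.9, 22.7 and 23.7 CPM against 14.3, 10.2 and 11.8 CPM, so the groups stood apart in opposite directions. Its log2 changes were 0.47 ± 0.09 (adjusted p = 0.00211, under 1.5-fold) and -0.89 ± 0.12 (adjusted p = 0.00019), and the responses differed by -1.36 ± 0.15 (adjusted p = 9.32e-05). ITGB4, the beta subunit of the hemidesmosome, fell under the SK-MEL-28 label by 0.62 on the log2 scale (SE 0.07, adjusted p = 7.9e-05), which came to -0.58 and under the threshold without SK-MEL-28 etoposide replicate 3. In A375 its log2 difference was -0.39 ± 0.12 (adjusted p = 0.0309). ITGB2, the beta subunit of leukocyte integrins, rose from 1.95 to 3.81 CPM in A375 (log2 0.97 ± 0.22, adjusted p = 0.00641) and from 5.22 to 8.61 CPM under the SK-MEL-28 label (log2 0.72 ± 0.12, adjusted p = 0.0013). Its alpha partners ITGAM and ITGAX had log2 differences of -0.01 and 0.02 (-0.02 with library totals) in A375 and of -0.36 and -0.03 under the SK-MEL-28 label, with adjusted p of 0.989, 0.901, 0.496 and 0.907. The summed level of the 8 leukocyte markers, of which ITGB2 is one, was 11.3 to 17.4 and 16 to 25.1 RPKM in A375 without and with rapamycin and 9.97 to 11.7 and 11.2 to 22.3 RPKM under the SK-MEL-28 label. Nearly all of that was CD68, a lysosomal protein, with group means of 10 to 19.2 RPKM, and its part in the change of ITGB2 was not tested.

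ITGB8, which pairs with ITGAV and activates latent TGF-beta, stood at 168.9, 159.1 and 165.3 CPM under the SK-MEL-28 label with etoposide and at 259.8, 247.6 and 230.1 CPM with etoposide + rapamycin. Its log2 difference of 0.58 ± 0.06 (adjusted p = 1.58e-05) lay just under the fold threshold and passed it without SK-MEL-28 etoposide + rapamycin replicate 3 (0.62) or SK-MEL-28 etoposide replicate 1 (0.60). In A375 it stood at 510.2, 481.1 and 530.4 CPM against 541.7, 557.6 and 526.2 CPM, a log2 difference of 0.10 ± 0.05 (adjusted p = 0.133), and the responses differed by 0.48 ± 0.07 (adjusted p = 0.000791). ITGB5, another beta partner of ITGAV, had small decreases of 0.18 and 0.22 on the log2 scale (adjusted p = 0.00964 and 0.00748), both far from 1.5-fold. ITGA7 had a log2 difference of 0.43 ± 0.16 under the SK-MEL-28 label (adjusted p = 0.0739), which passed both thresholds at 0.60 without SK-MEL-28 etoposide + rapamycin replicate 2, and of 0.07 ± 0.10 in A375. ITGAE and ITGB7 passed no test in either comparison.

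To compare genes with each other, CPM was divided by the length of the gene's exons to give RPKM. ITGB3 had the highest level of the 26 integrin genes in A375 with etoposide, 136.5 ± 11 RPKM (SD, n = 3), followed by ITGA5 at 102.1 ± 5.71. ITGA6 (53.6 ± 2.82) and ITGA3 (49.2 ± 2.96) came next and overlapped. ITGB1 stood at 31.9 ± 0.701 RPKM and overlapped ITGA1, its neighbour above at 33.4 ± 1.54. ITGAV (12.5 ± 0.512) and ITGA2 (12.1 ± 0.483) could not be separated either, and ITGA10 (2.29 ± 0.174), ITGA11 (1.48 ± 0.159) and ITGA4 (1.26 ± 0.127) held ranks 12, 16 and 18. The lowest 5 of the 26, among them ITGA2B of platelets and ITGAL of leukocytes, were all at or below 0.0415 RPKM.

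With rapamycin the order in A375 changed at the top, where ITGA5 at 111.7 ± 2.12 RPKM passed ITGB3 at 106.5 ± 1.07, and ITGA1 moved from rank 6 to rank 8. ITGA10 then held rank 15 (1.14 ± 0.115 RPKM) and overlapped its neighbour ITGB4, and ITGA11 held rank 18 (0.753 ± 0.0785). In the libraries labelled SK-MEL-28 with etoposide the order was ITGB3 (90.4 ± 1.23), ITGA3 (73.5 ± 2.57), ITGA6 (55.9 ± 2), ITGA5 (50.7 ± 1.45), each above the next. ITGA2 stood at 18.2 ± 0.823 RPKM there, ITGA10 at 6.07 ± 0.528 and ITGA4 at 4.78 ± 0.271, all higher in the order than in A375 by summed exon length. ITGB3 (64.5 ± 8.94) and ITGA3 (59.1 ± 2.08) overlapped under that label with rapamycin, as did ITGA5 (42.2 ± 2.18) and ITGA6 (41.4 ± 1.87), and ITGA11 was at 0.404 ± 0.0362. Ranks depend on the length used. With the longest transcript in place of all exons, ITGB1, whose exons cover 14561 bases while its longest transcript has 5614, rose from rank 7 to rank 4 in A375 with etoposide. Under the SK-MEL-28 label with etoposide, that length put ITGA3 (131.5 RPKM) above ITGB3 (103.9). It also put ITGA5 (74.96) and ITGB1 (72.26) above ITGA6 (64.22). ITGA2 then held rank 10 under both labels with etoposide.

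**Figure D3:**
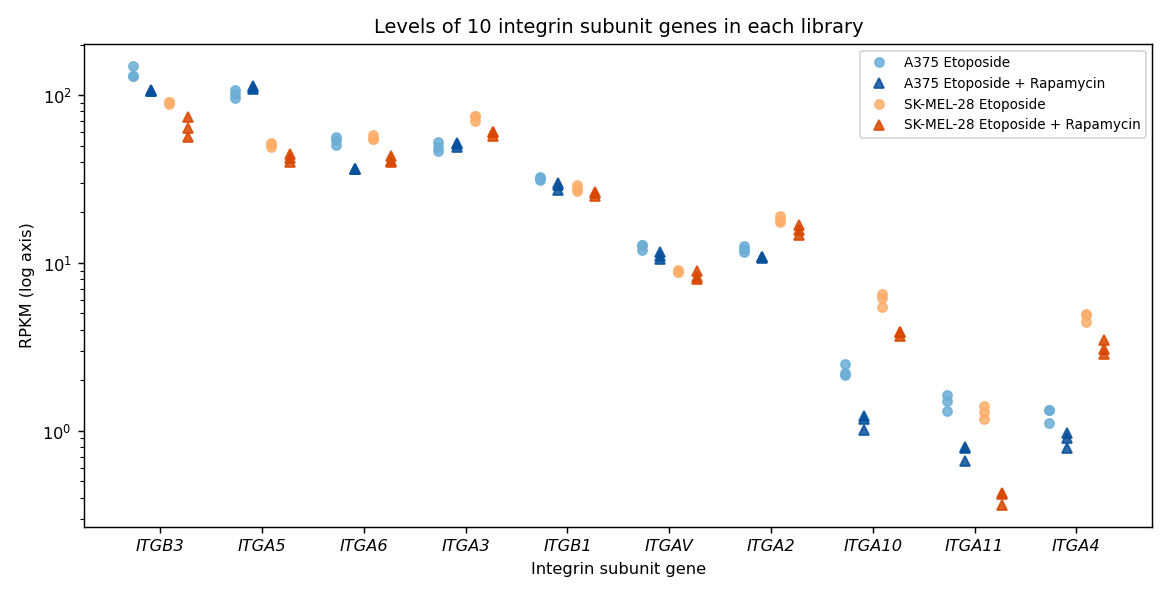
RPKM (log axis) of the 10 integrin subunit genes in each library, with etoposide as circles and etoposide + rapamycin as triangles, A375 in blue and the SK-MEL-28 label in orange. ITGB3 and ITGA5 lead in A375, and ITGA10, ITGA11 and ITGA4 lie at or below 6.52 RPKM in every library.

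The share of each ligand class in the summed RPKM of all alpha subunit genes describes how the mix was made up. In A375 the collagen-binding subunits made up 17.8% ± 0.679 (SD, n = 3) with etoposide and 10.8% ± 0.187 with etoposide + rapamycin, while the RGD-binding subunits made up 41.5% ± 0.738 and 49.9% ± 0.647. The laminin-binding subunits made up 38.1% ± 0.183 and 36.4% ± 0.773. The mix of the SK-MEL-28 label was 17.1% ± 0.725 and 16.7% ± 0.283 collagen-binding with etoposide and with etoposide + rapamycin, 24.6% ± 0.51 and 26.3% ± 0.152 RGD-binding, and 53.9% ± 0.345 and 53% ± 0.55 laminin-binding. Thus laminin receptors led under that label and RGD receptors in A375. The summed alpha level was 276.5 ± 12.2 and 245.9 ± 2.02 RPKM in A375, and 242.4 ± 1.53 and 192.4 ± 8.68 RPKM under the SK-MEL-28 label.

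Within the collagen-binding class of A375, ITGA1 made up 67.8% ± 0.527 with etoposide and 52% ± 0.75 with etoposide + rapamycin, and ITGA2 24.6% ± 0.353 and 40.8% ± 0.976. ITGA10 held 4.64% ± 0.206 and 4.28% ± 0.345 of the class there, and ITGA11 3% ± 0.188 and 2.84% ± 0.291, so the shares of these genes in their class moved little in A375 although their levels were lower. In the libraries labelled SK-MEL-28, ITGA10 held 14.6% ± 0.73 and 11.8% ± 0.42, ITGA11 3.12% ± 0.249 and 1.26% ± 0.128, ITGA1 38.3% ± 0.466 and 38% ± 0.389, and ITGA2 43.9% ± 1.25 and 48.9% ± 0.308. All shares use the summed exon length and depend on it. With the longest transcript, ITGA1 stood above ITGA2 under the SK-MEL-28 label, at 27.44 and 18.32 RPKM with etoposide. With etoposide + rapamycin it stood at 21.13 RPKM against 15.84 for ITGA2. These shares include the values by which the genes were chosen and are not tested. They rest on RNA, and protein at the cell surface was not analysed here.

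**Figure D4:**
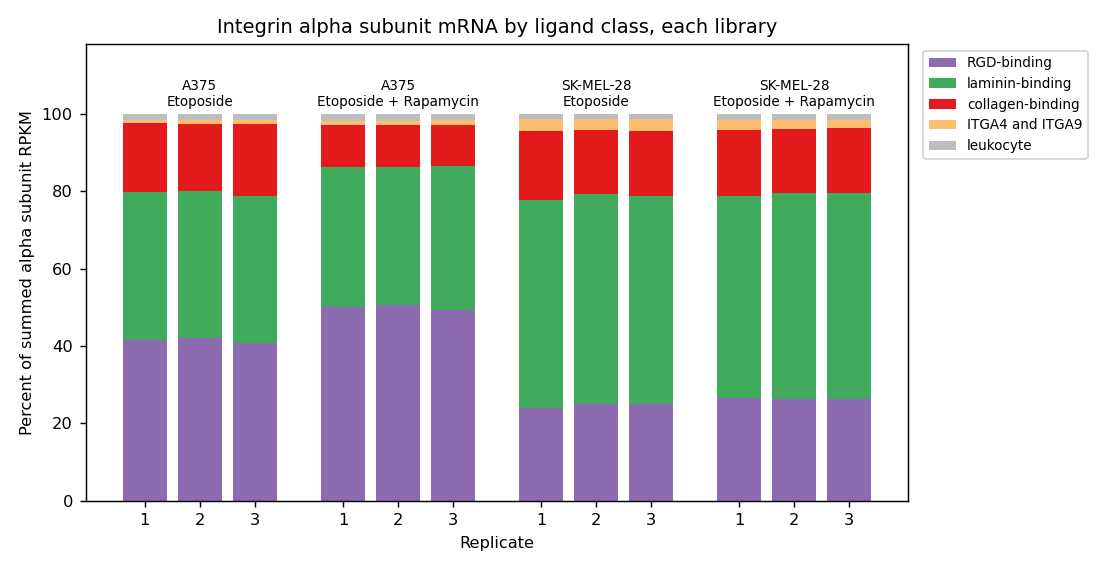
Stacked shares (percent, from 0 to 100) of the ligand classes in the summed alpha subunit RPKM of each of the 12 libraries, grouped by label and treatment. The collagen-binding share is 17.3% to 18.6% in A375 with etoposide and 10.6% to 11% with etoposide + rapamycin, and 16.5% to 17.9% and 16.5% to 17% under the SK-MEL-28 label.

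The difference between the cell line labels is another comparison than the one behind the choice of the 10 genes, although it uses the same libraries and earlier results of these data were known. It was tested with etoposide and, in separate libraries, with etoposide + rapamycin. With etoposide, 5 of the 10 genes passed (13% of all genes did, 7.32% as lower and 5.7% as higher). ITGA10, ITGA4 and ITGA2 were higher under the SK-MEL-28 label, and ITGA5 and ITGB3 were lower. With etoposide + rapamycin, 5 of the 10 passed (14.9% of all genes, 8.66% as lower and 6.29% as higher), ITGA10 and ITGA4 as higher and ITGA5, ITGB3 and ITGA11 as lower. With an adjusted p under 0.05 alone, 8 and 10 of the 10 passed, where 31.7% and 40.4% of all genes did. The labels did not overlap for 8 and 10 of the 10, against 44.6% and 51.2% of all genes.

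ITGA4 showed the largest difference, 1.93 ± 0.09 on the log2 scale with etoposide (adjusted p = 3.21e-09) and 1.82 ± 0.10 with etoposide + rapamycin (adjusted p = 1.19e-08). ITGA10 was 2.66-fold higher under the SK-MEL-28 label with etoposide (log2 1.41 ± 0.09, adjusted p = 8.97e-08) and 3.34-fold higher with etoposide + rapamycin (log2 1.74 ± 0.10, adjusted p = 2.21e-08). ITGA5 was 2.01-fold lower with etoposide (log2 -1.01 ± 0.05, adjusted p = 1.06e-08) and 2.65-fold lower with etoposide + rapamycin (log2 -1.41 ± 0.05, adjusted p = 5.22e-11). For these genes every library of a label lay on its side of every library of the other label in either treatment. For ITGA11 no difference beyond the spread of the libraries was detected with etoposide (log2 -0.20 ± 0.11, adjusted p = 0.193), where its groups overlapped, and it was 1.87-fold lower under the SK-MEL-28 label with etoposide + rapamycin (log2 -0.90 ± 0.14, adjusted p = 0.000195). The 2 comparisons of ITGA11 share no library, but its values in both treatments served in choosing it. The same holds for the other genes of the set. Their p-values between the labels, in either treatment, are therefore not independent of that choice. Whether the label difference of ITGA11 changed with rapamycin was not tested.

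The remaining genes differed by less. ITGB3 was lower under the SK-MEL-28 label, by log2 differences of -0.59 ± 0.06 (adjusted p = 3.47e-06) and -0.73 ± 0.07 (adjusted p = 4.69e-06). With etoposide its call rested on single libraries, since the difference came to -0.53 without A375 etoposide replicate 1, to -0.58 without SK-MEL-28 etoposide replicate 1 and to -0.58 by DESeq2. ITGA2 was higher by 0.59 ± 0.06 (adjusted p = 3.37e-06) and 0.54 ± 0.05 (adjusted p = 3.69e-06), and the first of these missed the fold threshold without A375 etoposide replicate 2 (0.56) or SK-MEL-28 etoposide replicate 1 (0.55). ITGA3 lay at 0.58 ± 0.05 with etoposide (adjusted p = 2.57e-06), just under the threshold, and passed it by DESeq2 (0.59), with RLE factors (0.59), with library totals (0.59), without A375 etoposide replicate 1 (0.63) and without SK-MEL-28 etoposide replicate 1 (0.61). With etoposide + rapamycin ITGA3 lay at 0.22 ± 0.04 (adjusted p = 0.000842). ITGAV was at -0.49 ± 0.05 (adjusted p = 6.81e-06) and -0.40 ± 0.05 (adjusted p = 3.9e-05), and ITGB1, at -0.19 ± 0.05 (adjusted p = 0.00836) and -0.16 ± 0.04 (adjusted p = 0.0105), was the closest to equal of the genes that passed on adjusted p in both treatments. ITGA6 stood at 0.06 ± 0.05 (adjusted p = 0.414) with etoposide and 0.19 ± 0.04 (adjusted p = 0.00411) with etoposide + rapamycin.

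**Figure D5:**
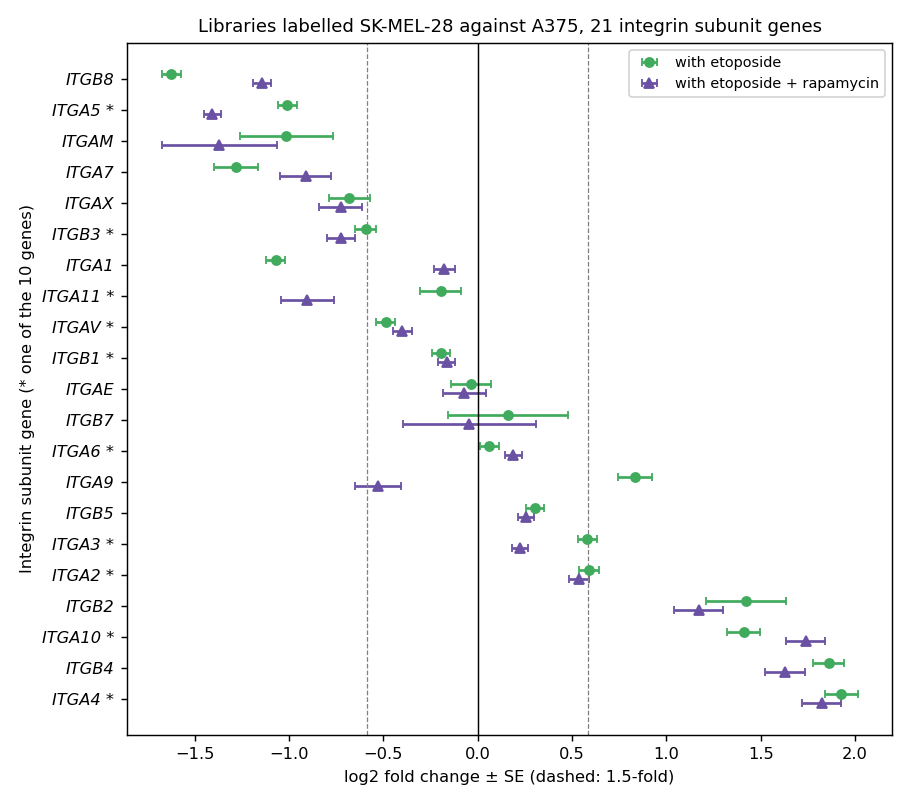
Log2 difference of the libraries labelled SK-MEL-28 to those labelled A375 (horizontal axis, points with SE bars) for 21 integrin subunit genes, with etoposide (circles) and with etoposide + rapamycin (triangles). Dashed lines mark 1.5-fold, asterisks mark the 10 genes described, and ITGA4 and ITGB4 lie farthest to the right and ITGB8 (-1.62 and -1.14) farthest to the left with etoposide.

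Among the 11 other integrin genes tested, 8 passed with etoposide (3 higher, 5 lower) and 6 with etoposide + rapamycin (2 higher, 4 lower). Of all genes, 13% passed with etoposide (5.7% higher, 7.32% lower) and 14.9% with etoposide + rapamycin (6.29% higher, 8.66% lower). ITGB4 (log2 1.86 and 1.63, adjusted p = 2.89e-09 and 5.8e-08) and ITGB2 (1.42 and 1.17, adjusted p = 0.000209 and 1.04e-05) were higher under the SK-MEL-28 label in both treatments. ITGB8 (-1.62 and -1.14, adjusted p = 1.51e-10 and 8.42e-10), ITGA7 (-1.28 and -0.91, adjusted p = 2.67e-06 and 0.000138), ITGAM (-1.01 and -1.37, adjusted p = 0.00663 and 0.00279) and ITGAX (-0.68 and -0.73, adjusted p = 0.000402 and 0.000199) were lower in both, ITGAX with etoposide not past the fold threshold without A375 etoposide replicate 1 (-0.58). Few reads lay behind ITGAM, with mean counts per library of 72 in A375 and 38 under the SK-MEL-28 label with etoposide. With etoposide + rapamycin its mean counts were 71.7 and 28. ITGB2 had a mean count of 57 in A375 with etoposide. ITGA1 was lower by 1.07 on the log2 scale with etoposide (adjusted p = 6.3e-09) and differed by -0.18 with etoposide + rapamycin (adjusted p = 0.0184). ITGA9 changed sides, at 0.83 with etoposide (adjusted p = 1.35e-05) and -0.53 with etoposide + rapamycin (adjusted p = 0.00315), and the latter passed the fold threshold without SK-MEL-28 etoposide + rapamycin replicate 1 (-0.67). CERKL, which overlaps ITGA4 on the opposite strand, stood at 1.97 and 8.3 CPM with etoposide and at 1.89 and 5.9 CPM with etoposide + rapamycin in A375 and under the SK-MEL-28 label. The sources used here do not say whether counting used the strand. How reads from bases shared by ITGA4 and CERKL were counted is therefore not known.

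Other genes of the adhesion machinery were taken as fixed lists. Of 28 activators and adapters, 26 were tested in A375, where 3 rose and 0 fell, and 27 under the SK-MEL-28 label, where 1 rose and 0 fell. Of all genes, 3.09% and 1.85% were called as higher in these comparisons and 2.8% and 3.14% as lower. At an unadjusted p under 0.05, 16 and 13 of the activators and adapters passed. The share of all genes at an unadjusted p is not given here, so such counts are no result about a list. TGFB1I1, a LIM adapter of focal adhesions, rose under both labels, by 0.60 ± 0.08 (adjusted p = 0.000134) and 0.60 ± 0.09 (adjusted p = 0.000331) on the log2 scale. It missed the fold threshold with library totals (0.55 and 0.57), in A375 also without etoposide + rapamycin replicate 3 (0.57) or etoposide replicate 1 (0.58), and under the SK-MEL-28 label without etoposide replicate 1 (0.56). None of the 17 adhesion kinases and docking proteins, such as PTK2 and SRC, passed in either comparison by edgeR or by DESeq2, with 12 and 7 at an unadjusted p under 0.05 by edgeR. None of the tetraspanins and membrane partners (15 tested in A375 and 14 under the SK-MEL-28 label) passed either by edgeR or DESeq2, with 8 and 7 at an unadjusted p under 0.05 by edgeR.

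Of 36 matrix ligands, 32 were tested. In A375 4 rose and 2 fell, and under the SK-MEL-28 label 1 rose and 3 fell, where 5.89% and 4.99% of all genes were called. SPP1 (osteopontin), a ligand of the ITGAV and ITGB3 pair and of ITGA4, fell from 12 to 4.09 CPM in A375 (log2 -1.55 ± 0.14, adjusted p = 8.26e-06) and from 67.2 to 35.5 CPM under the SK-MEL-28 label (log2 -0.92 ± 0.06, adjusted p = 7.75e-07). Between the labels, 15 of 32 matrix ligands passed with etoposide (4 higher, 11 lower under the SK-MEL-28 label) and 17 with etoposide + rapamycin (3 higher, 14 lower). Of all genes, 13% passed with etoposide (5.7% higher, 7.32% lower) and 14.9% with etoposide + rapamycin (6.29% higher, 8.66% lower). FN1 (fibronectin), the ligand of ITGA5, stood at 940.8 and 73.7 CPM with etoposide (log2 -3.67 ± 0.07, adjusted p = 1.51e-12) and at 873.3 and 191.8 CPM with etoposide + rapamycin (log2 -2.19 ± 0.06, adjusted p = 1.83e-11). Both ITGA5 and FN1 were thus lower under the SK-MEL-28 label. With rapamycin they went opposite ways under the SK-MEL-28 label, with log2 differences of 1.38 for FN1 and -0.27 for ITGA5. In A375 both differences were small. FN1 was at -0.10 there, with an adjusted p of 0.0576 to 0.525 over the edgeR and DESeq2 alternatives. ITGA5 was at 0.13 in A375, and at 0.09 with library totals. LAMB3, the beta chain of laminin-332, was lower by 1.71 and 2.78 on the log2 scale (adjusted p = 3.65e-10 and 1.73e-13), while SPP1 was higher by 2.48 and 3.11 (adjusted p = 3.37e-10 and 1.04e-10).

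In the other lists, 5 of 27 activators and adapters passed between the labels with etoposide (3 higher, 2 lower) and 4 of 26 with etoposide + rapamycin (1 higher, 3 lower). Of 17 kinases and docking proteins, 2 passed (both higher) and 3 (2 higher, 1 lower), and of the tetraspanins and partners 4 of 15 and 3 of 14, all lower. All genes passed at 13% and 14.9%, and a share near these is no result about a list. FERMT1 (kindlin-1), which activates integrins at the beta tail, was lower by 2.35 and 2.92 on the log2 scale (adjusted p = 5.04e-12 and 1.73e-13), and LIMS2, part of the ILK complex, by 1.19 and 1.27 (adjusted p = 0.00131 and 0.000223). CAV1, the caveolae protein, was higher by 1.24 and 1.21 (adjusted p = 9.36e-09 and 3.38e-09) and PAK2, a kinase of actin turnover, by 0.68 and 0.76 (adjusted p = 8.88e-07 and 1.06e-07). The tetraspanins CD82 (-1.21 and -1.92, adjusted p = 1.66e-08 and 2.59e-11) and CD9 (-1.31 and -1.497, adjusted p = 1.02e-09 and 3.1e-11) and the syndecan SDC4 (-0.90 and -0.99, adjusted p = 2.15e-08 and 3.25e-09) were lower.

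Genes with a profile like those of ITGA10 and ITGA11 were ranked among 14206 genes by the root mean square difference in log2 CPM over the 12 libraries, each centred on its label. The 5 nearest to ITGA10 were STARD4, MTUS1, NAMPT, ME1 and GLIPR1, at distances of 0.105 to 0.118, against a median of 0.458 over all genes. Those nearest to ITGA11 were TMEM45A, PDK1, VLDLR, ENPP2 and EPAS1, at 0.161 to 0.199, against a median of 0.705. The lists share no gene. ITGA10 and ITGA11 lay 0.374 apart, so that ITGA10 ranked 149 among the genes nearest to ITGA11 and ITGA11 ranked 3041 among those nearest to ITGA10. These distances are a description over the same 12 libraries that gave the differences above.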

How the data were processed

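RNA sequencing libraries of 4 groups, 3 per group, were analysed as 1 table of raw gene counts that the authors deposited. Per the labels and the study's methods, the authors aligned polyA-enriched RNA reads with HISAT2 to hg38, assembled them with StringTie on the Ensembl release 90 annotation and compared groups with DESeq2. Strandedness and the step from assembly to whole counts are not given in the sources used here. Totals were 28190672 to 32499659 counts per library. The 5 rows of 58312 that name no gene were left out.

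Each comparison was fitted on its own 6 libraries with edgeR 4.0.16 (limma 3.58.1, R 4.3.3) by the quasi-likelihood test, two-sided, after filterByExpr (minimum count 10) and TMM scaling, p-values being adjusted across every tested gene by Benjamini-Hochberg. The difference of the responses was an interaction term over the 12 libraries. A gene was called at an adjusted p under 0.05 and over 1.5-fold, or at the adjusted p alone for the interaction. RPKM used TMM-scaled counts and the summed exon length of GENCODE release 44, which is not the annotation of the counts.

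The members and all lists were chosen with earlier results of these data known. Named were the 10 members, the other integrin subunits tested, from each other list the 3 genes with the largest change among those called in 1 direction in both rapamycin comparisons or in both comparisons of labels, and the 5 nearest profiles, except 1 list gene that is not reported here. LUM, COL1A2, COL1A1, CD68, PTPRC, CDH5, KDR, KRT18 and KRT8 are list markers, and PELO, EFCAB13 and CERKL share a locus. Same-numbered libraries did not deviate together (correlations of -0.03 to 0.021, against -0.035 to 0.039 for libraries with different numbers), so the numbers do not pair the samples. The alternatives were DESeq2 1.42.0, RLE factors, library totals, a weaker filter, the replicate number as a block, 1 fit of all libraries, no fold threshold, another length and leaving out each library. The fitting script was tested on simulated data.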

Additional observations from a re-analysis of the deposited data

Results flagged for a closer look

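Several genes responded to rapamycin differently under the A375 and SK-MEL-28 labels, by the edgeR interaction test over 12 libraries (3 per group). All of these rest on the libraries labelled SK-MEL-28, of which the labels are in doubt. Each value is the log2 response under the SK-MEL-28 label minus that in A375. Among integrins outside the 10 genes, ITGA1 differed by 0.90 ± 0.08 (SE, adjusted p = 6.62e-06), with its larger fall in A375. ITGA9 differed by -1.36 ± 0.15 (adjusted p = 9.32e-05), from 0.47 in A375 to -0.89. ITGB8 differed by 0.48 ± 0.07 (adjusted p = 0.000791). Among ligands, FN1 differed by 1.49 ± 0.09 (adjusted p = 2.35e-07), LAMB3 by -1.06 ± 0.07 (adjusted p = 4.93e-07) and SPP1 by 0.63 ± 0.14 (adjusted p = 0.0118). FERMT1 differed by -0.57 ± 0.07 (adjusted p = 0.000117) and the tetraspanin CD82 by -0.70 ± 0.08 (adjusted p = 0.000159). ITGA5 stood out because, on the TMM scale, each A375 library with rapamycin lay above each without it. Under the SK-MEL-28 label each lay below. The log2 difference of ITGA5 in A375 was 0.13, and 0.09 with library totals. Its responses under the labels differed by -0.39. The difference of ITGA5 was not tested here: the value served in choosing the genes, so no p of the fit is read for it.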

How the results depend on the processing

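No called change named turned its direction under the alternatives run. Without the fold threshold, 5295 genes passed in A375, 3582 under the SK-MEL-28 label, and 6037 and 7597 between the labels with etoposide and with etoposide + rapamycin, among them 8 and 10 of the 10 members in the last 2 (8 and 8 in the first 2, as a description), and 5 and 6 of the other integrins in the first 2. The interaction gave 1130 genes, but 1736 by DESeq2, 658 with a filter of at least 1 count and 594 to 1315 without 1 library. It moved by over 1.5-fold without A375 etoposide + rapamycin replicate 3 (594), A375 etoposide replicate 3 (642), SK-MEL-28 etoposide replicate 2 (616) or 3 (705), or SK-MEL-28 etoposide + rapamycin replicate 2 (710), and these causes were not tested. Without 1 library, 913 to 1202 genes were called in A375 and 816 to 954 under the SK-MEL-28 label. With the longest transcript, ITGB1 ranked 4, 4, 4 and 3 of the 26 integrins in the order of the groups, ITGA10 14, 16, 12 and 12, and ITGA11 18 in both etoposide groups. With library totals, 41.5% of the genes called in A375 were higher, against 52.5%. The replicate numbers do not pair the samples, and with the replicate block 1023, 892, 1010, 2431 and 2769 genes were called, against 1109, 943, 1130, 2477 and 2813 without it. A value of a single gene was counted once per comparison and alternative, without the rapamycin and interaction values of the 10 members. Of these, 38 were called under an alternative but not in the main fit, and 13 were the reverse. Most of the 38 came from leaving out the fold threshold, which by its rule adds every gene with an adjusted p under 0.05. Depth limits ITGA2B, ITGA8, ITGAD, ITGAL and ITGB6, which were too low to test.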
